A study of Mus musculus with 10 samples.

Results

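The cyclic nucleotide phosphodiesterases (PDEs) of the left ventricle (LV) were followed in mice with neonatal ascending aorta constriction (nAAC), a model of pressure overload in the young heart. The genes Pde1a, Pde1c, Pde2a, Pde3a, Pde3b, Pde4a, Pde4b, Pde4d, Pde5a and Pde9a were taken by name, and all 10 were found among the 55401 genes of the tables. The nAAC group held 5 wild-type (WT) mice whose ascending aorta was narrowed surgically within a day of birth, and the sham group held 5 WT mice that were operated on without constriction. All 10 mice were 4 weeks old, and each gave 1 RNA sequencing library from LV tissue. The study's methods give C57BL/6 as the strain and pups of mixed sex kept with their mothers, and the labels give no sex or litter for a mouse. Levels are given in FPKM, which counts sequenced fragments per kilobase of RNA and corrects for the size of the library.

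PDEs are the enzymes that break down cyclic AMP and cyclic GMP, the second messengers through which β-adrenergic receptors, natriuretic peptides and nitric oxide act on heart muscle. PDE1 is switched on by calcium and calmodulin and cleaves both messengers, PDE2 cleaves both and is stimulated by cyclic GMP, and PDE3 cleaves cyclic AMP and is inhibited by cyclic GMP. PDE4 is specific for cyclic AMP, and PDE5 and PDE9 are specific for cyclic GMP. In cardiomyocytes they are known to hold the messengers in small compartments around calcium channels, phospholamban and the contractile apparatus, and several are drug targets.

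The promoters of Pde1a and Pde2a, the members with the largest increase and the largest decrease below, are shown because the study concerned the aryl hydrocarbon receptor (AHR), a ligand-activated transcription factor. Windows of 250 bases before a RefSeq transcription start on GRCm38.p6 were found for 7 of the 10 genes, in all 21 windows, and not for Pde3a, Pde3b and Pde9a. They were searched on both strands for the AHR core GCGTG, for the cyclic AMP response element TGACGTCA and for its partial form TGACG, which also lies within the full element. Capitals mark a match, which reads as its reverse complement where it lies on the other strand, and both sequences run 5′ to 3′ on the strand of the gene. The Pde1a window is chr2:80038903-80039152 on the minus strand, and the Pde2a window is chr7:101421441-101421690 on the plus strand.
Pde1a: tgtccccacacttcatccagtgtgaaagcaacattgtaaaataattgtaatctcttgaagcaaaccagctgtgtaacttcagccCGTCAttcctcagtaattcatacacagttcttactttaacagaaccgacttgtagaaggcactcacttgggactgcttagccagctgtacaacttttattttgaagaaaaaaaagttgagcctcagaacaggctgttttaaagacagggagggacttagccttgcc
Pde2a: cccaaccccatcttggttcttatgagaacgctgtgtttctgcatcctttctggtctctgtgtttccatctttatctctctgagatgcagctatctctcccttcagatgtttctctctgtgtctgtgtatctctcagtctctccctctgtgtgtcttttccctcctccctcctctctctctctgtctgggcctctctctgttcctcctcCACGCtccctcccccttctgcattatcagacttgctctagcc
The Pde1a window, the only one of 4 for this gene with a match, held 1 TGACG and no GCGTG. The Pde2a window, the only one of 5 for this gene with a match, held 1 GCGTG and no TGACG. Over the members, GCGTG was present in 3 of 21 windows, against 28.2% of all 32851 windows of the same length, and the other 2 lay before Pde4a and Pde4b. TGACG was present in 3 of 21 windows against 17.8% of all windows, and the full response element in 0 of 21 against 1.55%. A match describes these letters only and was not tested as a binding site.

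Of the 10 members, 9 reached the filter, a mean of 1 FPKM over the 10 libraries, and were tested, and 3 of the 9 passed an adjusted p of 0.05 in limma, a linear model fitted to log2(FPKM + 1) of all genes. Pde1a and Pde9a were up-regulated in nAAC and Pde2a was down-regulated. Increases were called in 27.1% of the 11867 genes tested and decreases in 4.60%. The study's thresholds for a differentially expressed gene (DEG) also ask for an absolute log2 fold change (FC) above 1. On log2(FPKM + 1) no member met them, and 5.91% of the genes tested did. The added 1 lowers the log2 FC of genes at a low level, and without it that of Pde1a was 1.03. The same 3 were the only members under an unadjusted p of 0.05 in limma, which at least the 3757 called of the 11867 genes also passed. In Pde1a alone of the 10 members did the FPKM ranges of both groups not overlap, against 22.3% of the genes tested. The median log2 FC was −0.04 over the 9 tested members and 0.22 over all genes tested. The median gene thus lay higher in nAAC on the deposited scale, and scaling each library by the median ratio of its genes moved that median to −0.02. With this scaling 5 members were called, Pde1a higher and Pde1c, Pde2a, Pde3a and Pde4d lower, and the split over all genes went from 3211 higher and 546 lower to 1488 higher and 1517 lower.

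The labels give no sex, and Xist, expressed in female cells, exceeded 1 FPKM in 4 of 5 nAAC and 2 of 5 sham libraries. With log2 Xist as a covariate Pde1a was still called (limma adjusted p = 0.03), whereas Pde2a (log2 FC −0.70, adjusted p = 0.115) and Pde9a (0.29, adjusted p = 0.215) were not. All 7 cardiomyocyte markers were found in every library, and the lowest value was 7.39 FPKM, for Ttn in a sham library. Of the marker genes tested for other cells, 1 of 5 endothelial, 1 of 5 macrophage, and 0 of 3 atrial, 0 of 2 Schwann and neuronal and 0 of 3 erythroid genes were called, both called genes being higher in nAAC. Atrial markers varied most, with sums of 2.03 to 227 FPKM in nAAC and 3.05 to 44.7 FPKM in sham.

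**Figure D1:**
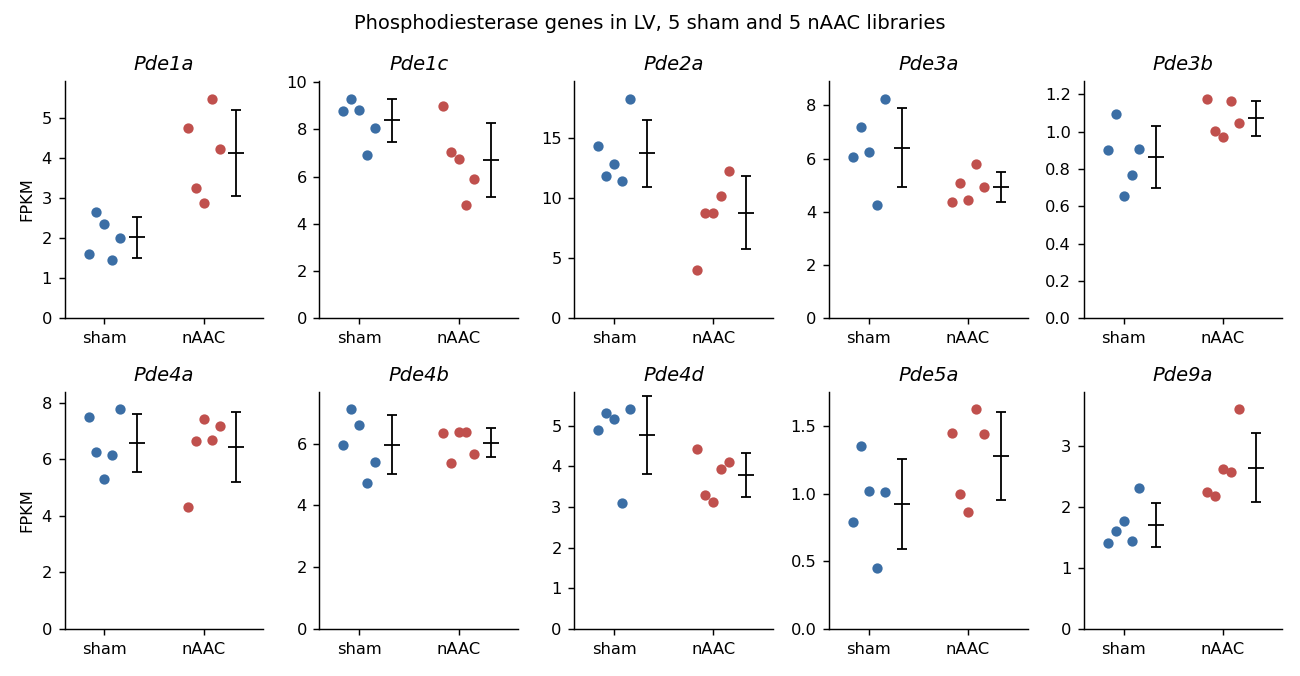
FPKM of each of the 10 genes in the 5 sham and 5 nAAC libraries. Points are libraries in the order of their replicate number, and the bar beside them gives the mean and SD. The nAAC libraries of Pde1a all lie above the sham libraries, from 2.87 to 5.47 against 1.44 to 2.65 FPKM, and the other genes overlap.

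Among the calmodulin-stimulated enzymes, Pde1a rose in nAAC to 2.04 times its sham mean. Its level was 1.61, 2.65, 2.36, 1.44 and 2.01 FPKM in sham mice 1 to 5, and 4.75, 3.24, 2.87, 5.47 and 4.22 FPKM in nAAC mice 1 to 5. Every nAAC mouse was above every sham mouse, although the lowest nAAC value and the highest sham value were close. The log2 FC was 0.75 ± 0.16 (SE, n = 5 per group) with an adjusted p of 0.0035 in limma, and the two-sided exact permutation test gave p = 0.0079, the smallest it can give with 5 against 5 mice. Relative to the median of all genes the log2 FC was 0.53. Pde1a was called in all 20 other settings of the fit chosen at the outset, with a log2 FC between 0.51 and 0.99.

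The related Pde1c, a PDE1 gene known from cardiomyocytes, had a higher FPKM than Pde1a in 9 of the 10 libraries and did not share its increase. It stood at 8.76, 9.30, 8.83, 6.92 and 8.08 FPKM in sham mice 1 to 5, and at 9.0, 7.02, 6.76, 4.80 and 5.91 FPKM in nAAC mice 1 to 5. Of the nAAC mice 3 lay below all sham mice, mouse 2 lay just above the lowest sham mouse, and mouse 1 was in the upper part of the sham range. The log2 FC was −0.30 ± 0.14 (SE, n = 5 per group) with an adjusted p of 0.125 in limma, so the difference did not pass the test. Without nAAC mouse 1 the log2 FC was −0.40 and the adjusted p 0.039, and with median-ratio scaling they were −0.56 and 0.029. Pde1b, the remaining PDE1 gene, lay below the filter at a mean of 0.981 FPKM in nAAC and 0.433 in sham, with ranges of 0.793 to 1.36 and 0.350 to 0.495 that did not overlap, and is named here after its values were seen. The ratio of Pde1c to Pde1a, which does not depend on the scaling between libraries, was 3.51 to 5.43 in sham and 0.877 to 2.36 in nAAC. In nAAC mouse 4 Pde1a exceeded Pde1c in FPKM. In the deposited coverage, taken as mean read depth per base, it lay below Pde1c there, at 0.686 against 1.66.

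Markers of fibroblasts were also compared between the groups. Of 6 fibroblast markers 5 were called higher in nAAC, and Pdgfra was not (log2 FC 0.26). Among the 5 were Postn and Col1a1, which encode matrix proteins, and Tcf21, a transcription factor of these cells. Dcn and Lum passed narrowly (limma adjusted p = 0.046 for each). The summed level of the 6 ranged from 481 to 864 FPKM in nAAC and from 344 to 371 FPKM in sham. Of 7 smooth muscle and pericyte markers 5 were called higher, and Rgs5 and Kcnj8 were not (log2 FC −0.0024 and −0.0026). The 7 summed to 252 to 353 FPKM in nAAC and 166 to 278 FPKM in sham, of which Rgs5 had a mean of 163 FPKM in each group. In bulk tissue a change in the number of cells of a type and a change in RNA per cell cannot be told apart, and the part of these cells in the Pde1a result was not tested. Over the 10 libraries, both groups pooled, the genes with the pattern most like Pde1a among 7414 that averaged 4 FPKM or more were Tgfbr2 (Pearson r = 0.98), a TGF-β receptor, Pls3 (r = 0.98), an actin-bundling protein, and Bicc1 (r = 0.98), an RNA-binding protein. The difference between groups is part of these r values, and they are given as a description.

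The cGMP-stimulated Pde2a fell in nAAC by 0.64 on the log2 scale. It stood at 14.3, 11.8, 12.8, 11.4 and 18.3 FPKM in sham mice 1 to 5, and at 4.03, 8.75, 8.76, 10.2 and 12.3 FPKM in nAAC mice 1 to 5. Of the nAAC mice 4 lay below all sham mice, mouse 5 lay within the sham range, and mouse 1 lay far below the rest. The SE was 0.23 (n = 5 per group), the adjusted p was 0.0455 in limma and the exact permutation p was 0.024. Relative to the median of all genes the log2 FC was −0.86. The call was lost when any of 8 libraries was left out, that is every library except nAAC mouse 5 and sham mouse 4, with adjusted p from 0.055 to 0.093 in these 8 fits, and without nAAC mouse 1 the log2 FC was −0.42. Over 20 other settings of the fit, leaving out libraries included, Pde2a was lower in all and called in 7, with a log2 FC from −0.91 to −0.42 and an adjusted p from 0.0044 to 0.124 in limma.

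Pde2a shares exons with a second annotated gene, and how reads were divided between them is not given in the sources used here. Gm45837 starts upstream on the same strand, at chr7:101410886-101512819 against chr7:101421691-101512827 for Pde2a on mm10. Of its 4139 exonic bases in GENCODE M21, 3955, or 95.6%, lie in exons of Pde2a, and sequence from these bases matches both genes. Gm45837 was listed at 3.08, 4.51, 3.51, 3.24 and 7.69 FPKM in sham mice 1 to 5, and at 9.49, 3.24, 4.54, 9.04 and 3.72 FPKM in nAAC mice 1 to 5. It took 17.7 to 29.6% of the summed level of both genes in sham and 23.3 to 70.2% in nAAC, with the highest share in nAAC mouse 1, the library with the least Pde2a. Gm45837 itself gave a log2 FC of 0.33 ± 0.28 (SE, n = 5 per group) and was not called in limma, with an adjusted p of 0.389.

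The summed level of Pde2a and Gm45837 was 18.1 ± 4.49 FPKM in sham and 14.8 ± 2.85 in nAAC (SD, n = 5), with ranges of 14.7 to 26.0 and 12.0 to 19.2. Its log2 FC of −0.27 ± 0.17 (SE) was not called in limma, with an adjusted p of 0.231 and an exact permutation p of 0.151. After median-ratio scaling the sum was called, at −0.55 ± 0.13 (SE) and an adjusted p of 0.0078. The sum was chosen after the values were seen. Within a library the sum was 6.16 to 12.9 times Pde1a in sham and 2.85 to 4.63 times in nAAC, which did not overlap.

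**Figure D2:**
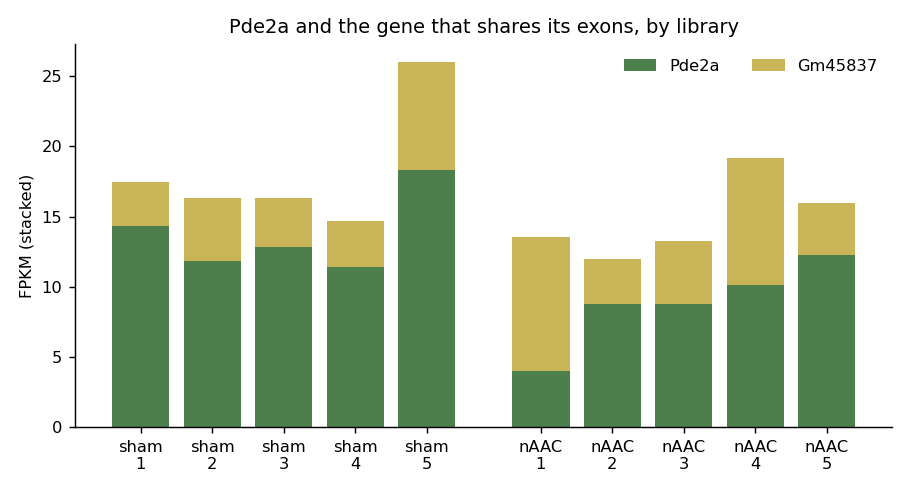
FPKM of Pde2a and Gm45837, stacked, in each of the 5 sham and 5 nAAC libraries. In nAAC mouse 1 Pde2a is lowest, at 4.03 FPKM, and Gm45837 highest, at 9.49 FPKM, and the bar of 13.5 FPKM stands within the nAAC range of 12.0 to 19.2.

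Over the 10 libraries the genes most like Pde2a were Kcnip2 (r = 0.93), a subunit of the transient outward potassium channel, Wnk2 (r = 0.91), a kinase, and Atp2a2 (r = 0.90), the calcium pump SERCA2 of the sarcoplasmic reticulum. Pde2a was taken here without Gm45837, and the difference between groups is part of these r values. Atp2a2 had a mean of 984 FPKM in nAAC and 1776 FPKM in sham. Of 7 cardiomyocyte markers 1 was called higher (Actn2) and 2 lower (Tnni3 and Pln), and their summed level was 6954 to 9574 FPKM in nAAC and 9494 to 16375 FPKM in sham. The part of these shifts in the Pde2a result was not tested.

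Of the cGMP-specific enzymes Pde9a rose in nAAC to 1.55 times its sham mean, and Pde5a, the target of sildenafil, did not pass the test. Pde9a stood at 1.41, 1.6, 1.76, 1.44 and 2.31 FPKM in sham mice 1 to 5, and at 2.24, 2.18, 2.61, 2.56 and 3.59 FPKM in nAAC mice 1 to 5. Of the nAAC mice 3 exceeded all sham mice, and the overlap came from sham mouse 5 alone. The log2 FC was 0.43 ± 0.13 (SE, n = 5 per group) with an adjusted p of 0.0246 in limma and an exact permutation p of 0.024. The log2 FC above the median of all genes was 0.20, and after median-ratio scaling it was 0.22 with an adjusted p of 0.191, so the call did not hold there. Over the 20 other settings it was higher in all and called in 13, with an adjusted p from 0.0098 to 0.409 in limma. It was also lost without nAAC mouse 5 (limma adjusted p = 0.065) and without sham mouse 1 (limma adjusted p = 0.064). The genes most like Pde9a were Card10 (r = 0.94), a scaffold of NF-κB signaling, Mbtps1 (r = 0.93), a Golgi protease, and Stx2 (r = 0.93), a syntaxin. These r values also hold the difference between groups.

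Pde5a was 0.789, 1.35, 1.02, 0.448 and 1.01 FPKM in sham mice 1 to 5, and 1.45, 0.996, 0.868, 1.62 and 1.44 FPKM in nAAC mice 1 to 5. The nAAC mice fell into 3 above all sham mice and 2 in the middle of the sham range. The log2 FC was 0.25, with a 95% interval from −0.07 to 0.56 and an adjusted p of 0.207 in limma. At levels this low the pseudocount of 1 lowers the log2 difference, and without it the difference was 0.51. Relative to the median of all genes the log2 FC was 0.02, and after median-ratio scaling it was 0.09 with an adjusted p of 0.709 in limma.

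Neither gene of the cGMP-inhibited pair, Pde3a and Pde3b, was called on the deposited scale, and the ratio between them differed between the groups. Pde3a, the main PDE3 gene of heart muscle, was 6.07, 7.20, 6.25, 4.24 and 8.25 FPKM in sham mice 1 to 5, and 4.38, 5.09, 4.43, 5.78 and 4.94 FPKM in nAAC mice 1 to 5. The nAAC values lay above sham mouse 4 and below the other 4 sham mice. The log2 FC of −0.30 ± 0.15 (SE, n = 5 per group) was not called in limma, with an adjusted p of 0.130. Without sham mouse 4 it was −0.42 and called (limma adjusted p = 0.014), and after median-ratio scaling −0.56 and called (adjusted p = 0.0085).

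Pde3b, the PDE3 gene best known from adipocytes and liver, was 0.903, 1.09, 0.653, 0.769 and 0.907 FPKM in sham mice 1 to 5, and 1.18, 1.0, 0.971, 1.16 and 1.05 FPKM in nAAC mice 1 to 5. Its mean of 0.968 FPKM was just below the filter. The difference on the log2(FPKM + 1) scale was 0.15 with an exact permutation p of 0.048, unadjusted, and in the 2 fits with a lower or no filter it was not called in limma, with an adjusted p of 0.217 and 0.290. Adipocyte markers summed to at most 0.71 FPKM in any library. The ratio of Pde3a to Pde3b was 6.73, 6.59, 9.58, 5.52 and 9.09 in sham mice 1 to 5, and 3.73, 5.08, 4.56, 4.97 and 4.72 in nAAC mice 1 to 5. The ratio was lower in every nAAC mouse than in every sham mouse, and it is given as a description with no test. Of the other ratios computed, Pde1c/Pde1a, Pde2a/Pde1a and Pde2a/Pde9a also did not overlap between the groups. Pde2a/Pde1a and Pde2a/Pde9a set the member called lower against the members called higher, so their separation repeats those calls. Ratios were not among the results planned at the outset, and how often ratios of other gene pairs separate was not examined. The ratios Pde2a/Pde3a, Pde5a/Pde9a, Pde4d/Pde4b and Pde1a/Pde5a did overlap.

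None of the 3 cAMP-specific PDE4 genes was called in limma, and none lay under an unadjusted p of 0.05. Pde4a was 7.49, 6.26, 5.29, 6.15 and 7.78 FPKM in sham mice 1 to 5, and 4.32, 6.64, 7.43, 6.67 and 7.19 FPKM in nAAC mice 1 to 5. Pde4b was 5.96, 7.11, 6.61, 4.71 and 5.41 FPKM in sham and 6.35, 5.39, 6.38, 6.36 and 5.66 FPKM in nAAC. The nAAC values of Pde4b lay inside the wider sham range, and those of Pde4a lay inside the sham range apart from nAAC mouse 1. The log2 FC was −0.04 for Pde4a, with a 95% interval from −0.35 to 0.28, and 0.02 for Pde4b, with an interval from −0.23 to 0.27, and both turned sign in other settings. The adjusted p values in limma were 0.872 and 0.900.

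Pde4d, whose product is known to associate with the ryanodine receptor and β-adrenergic receptors, was 4.90, 5.32, 5.16, 3.10 and 5.4 FPKM in sham and 4.42, 3.3, 3.13, 3.93 and 4.11 FPKM in nAAC. Apart from sham mouse 4, the lowest of all 10, each sham mouse was above each nAAC mouse. The log2 FC was −0.26 ± 0.14 (SE, n = 5 per group) with an adjusted p of 0.170 in limma. Without sham mouse 4 it was −0.38 and called (limma adjusted p = 0.015), and after median-ratio scaling −0.50 and called (adjusted p = 0.023). Sham mouse 4 was the lowest sham library in 7 of the 10 members, and the decreases of Pde1c, Pde3a and Pde4d were larger without it.

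**Figure D3:**
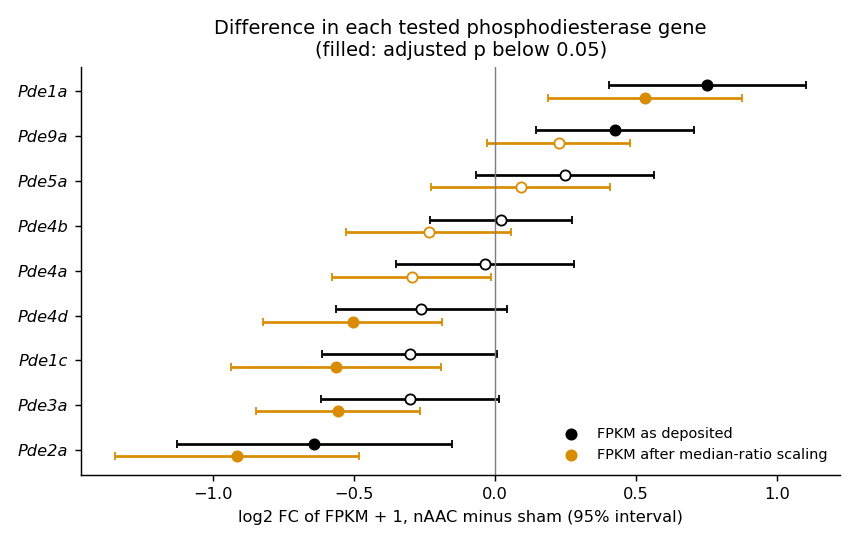
Log2 FC of nAAC against sham for the 9 tested genes, with 95% intervals, from the deposited FPKM and from FPKM scaled by median ratios. Filled points have an adjusted p below 0.05. Scaling moves each gene to the left, and Pde1a at 0.75 and 0.53 and Pde2a at −0.64 and −0.91 are the genes called in both.

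The members also changed in their shares of the summed PDE level, a measure within each library. The sum was 51.4 ± 6.84 FPKM in sham and 45.8 ± 3.51 in nAAC (SD, n = 5), and the ranges overlapped. Pde1a made up 3.92 ± 0.82% in sham and 8.97 ± 2.21% in nAAC, Pde9a 3.31 ± 0.47% and 5.73 ± 0.85%, and Pde3b 1.69 ± 0.30% and 2.35 ± 0.27% (SD, n = 5), each without overlap of the groups. In coverage in place of FPKM the Pde1a share was smaller, at 0.402% in sham and 0.949% in nAAC, and the Pde3b share larger, at 4.71% and 7.21%, again without overlap. The cGMP-specific genes together went from 4.21 to 5.58% in sham to 7.28 to 9.996% in nAAC. Pde2a held 26.7 ± 3.29% in sham and 19.0 ± 5.55% in nAAC, with overlap, and the level listed for Gm45837 is not counted in it. The cAMP-specific genes held 33.8 ± 1.54% and 35.6 ± 1.72%. A share falls when another member rises, so these values are not independent of each other.

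**Figure D4:**
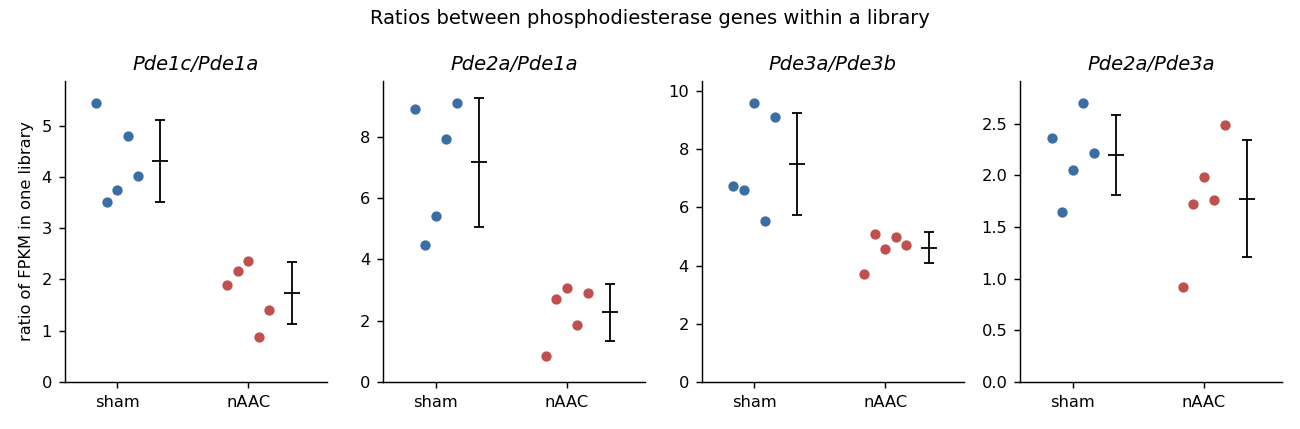
Ratio of the FPKM of pairs of genes within each of the 5 sham and 5 nAAC libraries, with mean and SD. The ratios Pde1c/Pde1a (3.51 to 5.43 in sham, 0.877 to 2.36 in nAAC), Pde2a/Pde1a and Pde3a/Pde3b do not overlap between groups, and Pde2a/Pde3a does. Pde2a is drawn here without Gm45837.

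By mean level Pde2a led in sham, followed by Pde1c, Pde4a, Pde3a, Pde4b, Pde4d, Pde1a, Pde9a, Pde5a and Pde3b. Only the steps from Pde2a to Pde1c, from Pde4d to Pde1a and from Pde9a to Pde5a separated neighbours in this order without overlap of the 5 libraries. In nAAC the order was Pde2a, Pde1c, Pde4a, Pde4b, Pde3a, Pde1a, Pde4d, Pde9a, Pde5a and Pde3b, and only Pde9a and Pde5a were apart. Pde2a was the highest member in 9 of the 10 libraries, and in nAAC mouse 1 Pde1c was, at 9.0 FPKM. In that library Pde2a and Gm45837, which share exons, summed to 13.5 FPKM, and the order leaves Gm45837 out. The order rests on FPKM. In the deposited coverage, taken as mean read depth per base, Pde3a led with 46.8% of the members' sum in sham and 44.7% in nAAC. FPKM exceeded depth-scaled coverage by a median factor of 1.04 in Pde3a and 210 in Pde4d, and why the factors differ is not known. Levels were therefore compared between groups rather than between genes wherever possible.

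The other genes of the cyclic nucleotide pathway were taken as lists, of which 55 of 75 genes were tested, with 19 called higher and 2 lower in nAAC, where 27.1% and 4.60% of all genes tested were called, and nothing particular to the pathway is read from these counts. After median-ratio scaling 11 of the 19 and both of the 2 were still called in the same direction, and Adcy6 and Prkaca were called lower. Of the 14 further genes taken by a PDE name, whether or not the product is itself such an enzyme, 6 were tested and 1 was called. This was Pde8a, a cAMP-specific enzyme with high affinity, at 8.23 FPKM in nAAC and 4.24 in sham (log2 FC 0.82 ± 0.11, adjusted p = 0.00013 in limma), with ranges of 7.39 to 9.05 and 3.48 to 5.10. Pde4c, Pde6d, Pde7a, Pde7b and Pde8b were not called, with log2 FC of 0.05, 0.10, 0.15, −0.32 and 0.05.

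Of the enzymes that make the messengers, 3 of 6 tested adenylyl cyclases rose. Adcy7 had the largest increase, from 1.37 FPKM in sham to 8.42 in nAAC (log2 FC 1.98), and Adcy3 and Adcy5, the latter known from cardiomyocytes, rose by 0.55 and 0.45. The call of Adcy5 was lost after median-ratio scaling (log2 FC 0.18), after upper-quartile scaling (0.21) and with the Xist covariate (0.34). Adcy6, the most abundant, was 27.4 FPKM in nAAC and 32.2 in sham and was not called (log2 FC −0.20). Of 5 tested guanylyl cyclases and natriuretic peptide receptors only Npr3, the clearance receptor, was called (log2 FC 0.50), and not after median-ratio scaling. Npr2, the most abundant of them and the receptor of C-type natriuretic peptide, was 12.8 FPKM in nAAC and 10.2 in sham (log2 FC 0.31) and was not called. The natriuretic peptide genes Nppa and Nppb, markers of a loaded ventricle, rose by 6.07 and 5.12 on the log2 scale. Both exporters rose, Abcc4 by 0.51 and Abcc5 by 0.67, and the call of Abcc4 was lost under both scalings (0.31 and 0.33) and with the Xist covariate (0.48).

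Downstream of cyclic AMP, the regulatory subunit Prkar1a of protein kinase A rose by 0.84 on the log2 scale, from 84.5 to 152 FPKM, and Pkia, which encodes a kinase inhibitor peptide, fell by 0.48. These were the genes called among 6 tested. The catalytic subunit Prkaca was 79.3 FPKM in nAAC and 85.1 in sham. Of 6 tested genes for protein kinase G, EPAC and Popeye proteins, which bind the messengers, Prkg1 (0.75), Rapgef4 (0.57) and Popdc3 (1.01) rose. Among 13 tested anchors and scaffolds Akap6 (0.55), which anchors the kinase and PDE4D at the nuclear envelope, and the β-arrestins Arrb1 (0.79) and Arrb2 (0.62) rose, and Akap7 fell by 0.46. Akap6 and Arrb2 were not called after median-ratio scaling (0.29 and 0.38), after upper-quartile scaling (0.31 and 0.41) or with the Xist covariate (0.61 and 0.48). Pkia (−0.43) and Akap7 (−0.47) were not called with the Xist covariate. Pde4dip, a Golgi and centrosome protein first found as a partner of PDE4D, was not called (0.53, adjusted p = 0.0508 in limma).

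Of 6 genes for CREB-type factors and their coactivators Atf1 (0.40), Crtc1 (0.52) and Crtc3 (0.36) rose. None of the 3 held after median-ratio scaling, upper-quartile scaling or with the Xist covariate.

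**Figure D5:**
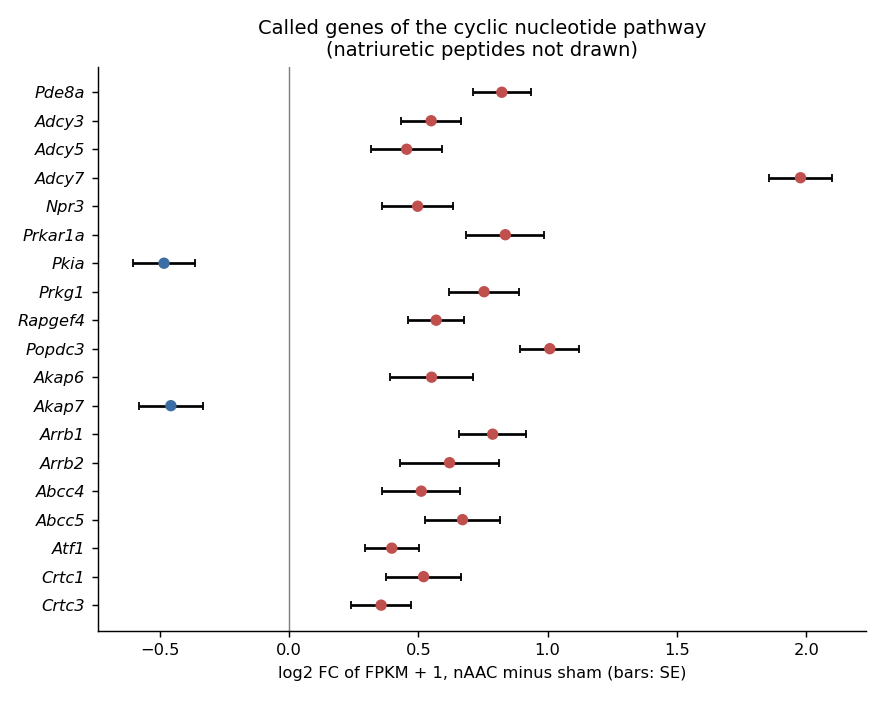
Log2 FC of nAAC against sham for the called genes of the pathway lists, with bars for the SE, natriuretic peptides left out. Adcy7 stands apart at 1.98, and Pkia and Akap7 are the genes below 0.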

How the data were processed

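LV RNA of 5 nAAC and 5 sham mice was analysed, with groups and replicate numbers from the labels. The authors deposited 1 gene table per mouse, in the layout of StringTie gene abundances, on mm10 per the submitters' processing notes. The deposited coverage is taken here as mean read depth per base, and how it relates to the FPKM of a gene is not given. The deposited FPKM is normalized by the authors for length and library size, and the deposited TPM is the same rescaled to a common sum. The aligner, the counting tool and the use of strand are not given in the sources used here. Read counts are not part of these tables, so counting error is unknown. Depth, estimated from the ratio of FPKM to coverage in genes with 1 transcript, was 4.86 to 6.82 gigabases in nAAC and 5.06 to 5.24 in sham. Rows sharing a gene ID were summed.

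For genes averaging at least 1 FPKM, log2(FPKM + 1) was fitted by group in limma 3.58.1 (R 4.3.3), with moderated variances that follow the mean level and no covariate. The Benjamini-Hochberg adjustment covered all 11867 genes, and calls required an adjusted p below 0.05. FPKM is not corrected for RNA composition, so 2 scalings between libraries were tried. Each member was compared by an exact, two-sided permutation test as well. Nothing says that the mice came from separate litters, so p values measure the spread between these mice. Exons came from GENCODE M21 and promoters from RefSeq. Genes named are the members, tested PDE genes, the called genes of pathway lists with at most 6 a list, the most abundant gene of a list with fewer than 2 calls, and the 3 genes most like each of the 3 members with the lowest adjusted p. Pde1b, Gm45837, Adcy6, Prkaca, Pde4dip and the cell markers were named after their values were seen. The members and lists were chosen with earlier results of these data known. The fit was tested on simulated data. Same-numbered mice did not deviate together. The result of 1 pathway list is not reported here.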

Additional observations from a re-analysis of the deposited data

Results flagged for a closer look

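Of 42 sets of 5 libraries examined for a library far from the others, 3 held such a library, and chance gives about 2.1. The gap to the nearest library, divided by the range of the group, was compared with Dixon's critical value of 0.71.

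In nAAC, Pde4a was 4.32 FPKM in mouse 1, with 6.64 in the nearest and 7.43 in the farthest mouse (ratio 0.747). In the same library Pde2a was lowest and Gm45837 highest. In sham, Pde4d was 3.10 FPKM in mouse 4, with 4.90 in the nearest and 5.4 in the farthest mouse (ratio 0.781). Also in sham, Pde1c made up 13.6% of the summed PDE level in mouse 5, with 16.8% in the nearest and 17.4% in the farthest mouse (ratio 0.832), and Pde2a reached 18.3 FPKM there, its highest level. The cause was not tested in any of these.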

How the results depend on the processing

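Pde1a was called under every alternative fitted. Over all genes, 1983 were called with Xist as a covariate in place of 3757, and 701 with the DEG threshold. Of the members, 1 was called with the Xist covariate, 1 with no filter and 0 with the DEG threshold on log2(FPKM + 1). After each of median-ratio scaling, upper-quartile scaling and removal of the length trend 5 were called. Leaving out each library gave 1 (without sham mouse 1) to 5 (without sham mouse 4), where 3037 and 4551 of all genes were called. With median-ratio scaling, upper-quartile scaling and the trend removal 3005, 2979 and 3586 of all genes were called, and with no filter 4035. Of the 21 pathway genes called, the count became 32 with TPM and 12 with the Xist covariate. The direction of Pde4a changed with TPM (0.12) and when single libraries were left out (from −0.10 to 0.081). The direction of Pde4b changed after removal of the length trend (−0.22), median-ratio (−0.24) and upper-quartile scaling (−0.21) and when single libraries were left out (from −0.047 to 0.080). Pde5a changed with the length trend removed (−0.0086). The cause was not tested, except that the scalings and the trend removal centre each library by construction.

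Same-numbered mice did not pair (correlations of deviations 0.19, −0.10, −0.32, −0.03 and 0.04), and with the replicate number as a block 3 members, 18 pathway genes and 3426 genes were called. Sums with Gm45837, coverage in place of FPKM and values without a pseudocount were added after the data were seen. Without read counts, no limit from depth can be given for the genes near 1 FPKM, Pde3b and Pde5a.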
